A study of Mus musculus with 6 samples.

Results

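Ubiquitin conjugating enzymes, F-box proteins and tripartite motif (TRIM) proteins were described in cultured mouse embryonic fibroblasts of the DR4 type. Members were the probe sets whose only platform gene symbol begins with Ube2, or with Fbxl, Fbxo, Fbxw or Trim followed by a digit, with Ube2c left out. The rule used names and no measured value. It found 170 of the 22626 probe sets of the Affymetrix array MOE430A, for 101 of its 12393 genes with a single symbol, and 139 of the 22511 probe sets of the companion array MOE430B, for 96 of 9607 such genes. In all, 157 genes were measured, 40 of them on both array types. Among the names that met the rule were Fbxl12os, a transcript of the opposite strand, Ube2d-ps, a pseudogene, and Ube2cbp, an E2-binding protein gene. None of these is a gene of an E2, F-box or TRIM protein, but they are counted with the families whose names they share.

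The series holds 6 arrays: total RNA of DR4 embryonic fibroblasts, replicates 1, 2 and 3, was hybridised to an MOE430A and an MOE430B array each. The fibroblasts came from day 15 embryos and were grown on 0.1% gelatin at 37 C and 5% CO2, in D-MEM with 15% heat-inactivated serum and leukaemia inhibitory factor (LIF), the cytokine that keeps embryonic stem cells undifferentiated. DR4 cells serve as a feeder layer for stem cells, and by their labels these samples are the feeder control of 3 embryonic stem cell lines (V6.5, R1 and J1), which are not analysed here. DR4 fibroblasts are known as coming from mice bred to carry several drug-resistance genes; the labels give no genotype or strain, and they do not say whether division had been arrested. Replicate 1 was prepared from 12x10e6 cells at an RNA concentration of 2.4 ug/ul, and replicates 2 and 3 from 3x10e6 cells at 3.0 ug/ul. Because no second cell type or treatment was hybridised, the comparisons are of the families with the rest of the array and of the replicates with each other. The labels do not say whether the replicates were separate cultures, so the spread between them, and every p-value, may be technical only.

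Ubiquitin is attached to proteins by a relay in which an E1 enzyme activates it, an E2 conjugating enzyme (most of them named Ube2) carries it, and an E3 ligase selects the substrate. F-box proteins are the substrate receptors of SCF ligases, in which Skp1 joins the F-box protein to the scaffold Cul1 and the RING protein Rbx1; the names Fbxl, Fbxw and Fbxo stand for receptors with leucine-rich repeats, with WD40 repeats and with other domains. TRIM proteins carry a RING domain, B-boxes and a coiled coil, and act as ligases in chromatin control, cytoskeletal organisation and antiviral defence.

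Values are MAS5 signals, the linear probe set intensities of the Affymetrix software, and triplets are always given in the order replicate 1, 2, 3. A probe set was called above the median when all 3 arrays of its type gave it a signal over the median of their non-control probe sets; that median was 687, 683 and 732 on MOE430A and 846, 913 and 903 on MOE430B. A gene was called above the median when at least 1 of its probe sets was. No detection call was used, so a signal under the median is not an absent transcript. Probe sets differ in how brightly they report their transcript, so signals are read against the array's own median; a brighter or dimmer signal than another probe set's serves only to choose which genes and probe sets are named and says nothing of the transcripts' amounts. In such a bulk sample, fewer cells of a type and less RNA per cell cannot be told apart.

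Of the member genes, 63 of 101 (62.4%) were above the median on MOE430A, where the share over all genes with a single symbol was 50.1%. On MOE430B 52 of 96 (54.2%) were above, beside 51.0% of all genes. By probe set the shares were 91 of 170 (53.5%; 43.4% of all) and 66 of 139 (47.5%; 42.6% of all). On MOE430A the Ube2 genes had the highest family share, 22 of 26 (84.6%), followed by Fbxw with 6 of 8. Fbxo had 12 of 22 (54.5%), Trim 21 of 39 (53.8%) and Fbxl 2 of 6. On MOE430B the order was another: Fbxl had 9 of 12, Fbxo 12 of 16, Ube2 11 of 21 (52.4%), Fbxw 6 of 13 (46.2%) and Trim 14 of 34 (41.2%). Counted over either array type, 95 of the 157 genes (60.5%) were above the median, beside 54.8% of the 18193 genes with a single symbol on either: 25 of 32 Ube2, 10 of 17 Fbxl, 22 of 32 Fbxo, 11 of 18 Fbxw and 27 of 58 Trim genes. A further 30 genes were above it on no array with any probe set, 17 of them among the 58 Trim genes. The like count over all genes was not made. By probe set, 50 of 170 members were above it on no MOE430A array, beside 8401 of 20380 probe sets with a single symbol. On MOE430B they were 46 of 139, beside 4845 of 14661. Trim probe sets made up 20 of these 50 and 23 of these 46, out of 64 Trim probe sets measured on MOE430A and 47 on MOE430B.

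**Figure D1:**
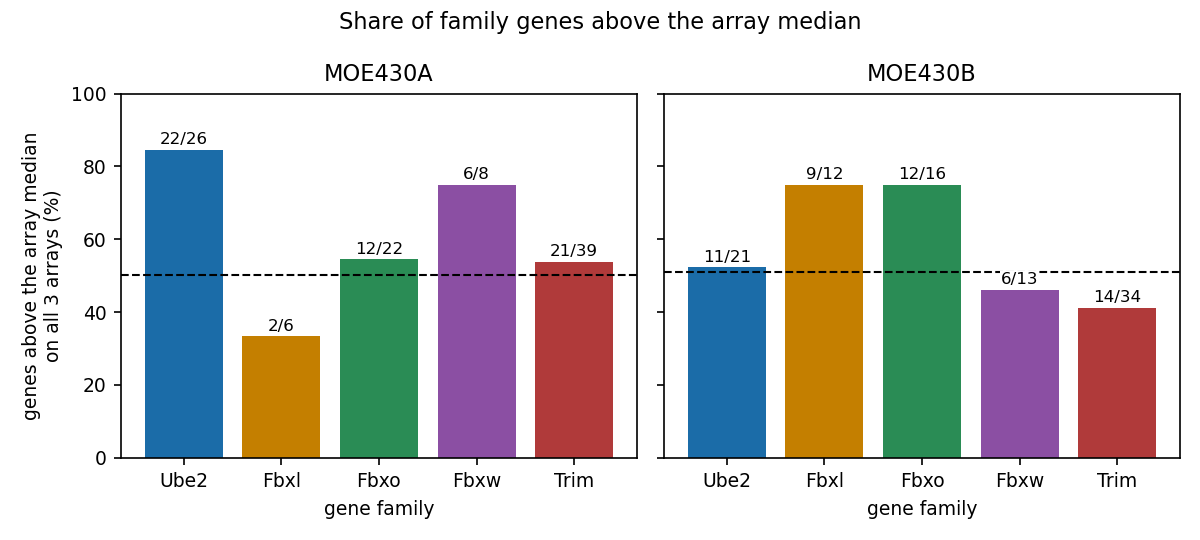
Share of the genes of each family (percent, bars) with a probe set above the array median on all 3 arrays, for MOE430A on the left and MOE430B on the right; the figures on the bars are genes above over genes measured and the dashed line is the share of all genes with a single symbol. The Ube2 bar stands at 84.6% on MOE430A and 52.4% on MOE430B, beside dashed lines at 50.1% and 51.0%.

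The counts depend on the height of the threshold. On MOE430B the highest of the array's tryptophan control probe sets, which report bacterial transcripts, gave 1989, 2348 and 2229, well over the median. Only 31 of the 96 member genes exceeded that control on all 3 arrays (32.3%; 27.0% of all genes), namely 6 of 21 Ube2, 5 of 12 Fbxl, 8 of 16 Fbxo, 5 of 13 Fbxw and 7 of 34 Trim genes. On MOE430A the same control gave 614, 757 and 786, and 62 of 101 member genes exceeded it (61.4%; 49.1% of all genes). At the 75th percentile of the MOE430A arrays 14 of 26 Ube2 genes remained above but only 1 of 22 Fbxo genes, beside 25.4% of all genes.

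RefSeq promoters of the GRCm38.p6 build were at hand for 122 of the 157 genes, matched by gene identifier. The number of CG dinucleotides, whose density marks the CpG island promoters of many widely expressed genes, was counted in the 250 bases before the first listed start (30 of the 122 genes had several). Genes above the median had a median of 16.5 CG (72 genes) and the other members 6 (50 genes), against 16 and 7 over all 14368 measured genes with a promoter. At least 10 CG were present in 81.9% of the members above the median and 40.0% of the others, against 73.3% and 41.9% of all measured genes. The members thus show a difference that the whole array shows too. It was not the same in every family. The medians were 24.5 and 13.5 for Ube2, 13 and 4 for Trim and 10 and 1 for Fbxw. They were 16 and 20 for Fbxl and 15 and 19 for Fbxo. Only 6 Ube2, 5 Fbxw, 4 Fbxl and 5 Fbxo genes were not above the median, beside 30 Trim genes.

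**Figure D2:**
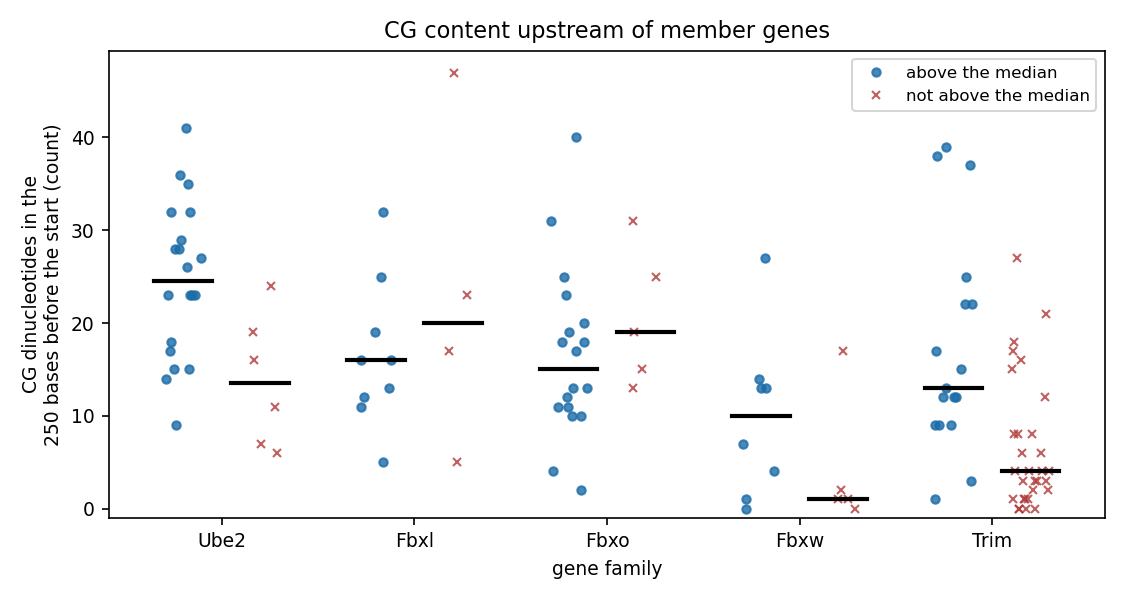
CG dinucleotides (count, vertical axis) in the 250 bases before the start of each of the 122 member genes with a RefSeq promoter, by family; circles are genes above the array median on either array type, crosses the others, and lines the medians. Ube2 circles have a median of 24.5 and Trim crosses one of 4.

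The following 3 promoters belong to genes above the median and span the CG counts of those genes, while Fbxl14, which was not above it, had the most CG of any member, 47. They are those of Ube2j1, an E2 of the endoplasmic reticulum with 41 CG (chr4:33031130-33031379, plus strand), Trim28, a chromatin cofactor with 17 (chr7:13023902-13024151, plus strand), and Fbxw16, a gene of a cluster known from oocytes, with 0 (chr9:109449141-109449390, minus strand). Capitals mark each CG; the sequences run 5′ to 3′ on the gene's strand and end at the base before the start.
Ube2j1: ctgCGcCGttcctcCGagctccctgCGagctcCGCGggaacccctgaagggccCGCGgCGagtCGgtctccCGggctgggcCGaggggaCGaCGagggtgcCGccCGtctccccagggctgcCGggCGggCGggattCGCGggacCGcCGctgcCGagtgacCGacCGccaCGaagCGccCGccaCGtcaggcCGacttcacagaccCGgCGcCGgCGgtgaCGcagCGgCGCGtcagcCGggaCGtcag
Trim28: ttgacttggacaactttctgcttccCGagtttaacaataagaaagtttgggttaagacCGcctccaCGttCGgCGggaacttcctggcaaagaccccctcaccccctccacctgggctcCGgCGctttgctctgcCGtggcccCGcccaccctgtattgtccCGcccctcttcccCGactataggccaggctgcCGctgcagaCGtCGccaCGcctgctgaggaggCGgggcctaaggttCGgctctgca
Fbxw16: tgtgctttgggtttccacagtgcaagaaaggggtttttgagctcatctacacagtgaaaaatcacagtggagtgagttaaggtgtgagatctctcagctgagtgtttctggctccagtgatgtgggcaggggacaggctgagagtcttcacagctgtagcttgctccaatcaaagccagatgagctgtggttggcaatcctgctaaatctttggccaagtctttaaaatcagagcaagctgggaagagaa
Fbxw16 was above the median with both of its probe sets although its window holds no CG.

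The E2 enzymes that work with many ligases, the D and E subfamilies and Ube2w, were above the median for 7 of 8 genes. For this list and the member lists that follow, counts are over either array type, where 54.8% of all genes were above the median. Each list is short, and none was tested against that share. Ube2d3 had signals of 20241, 17596 and 15574 with its brightest MOE430A probe set, a mean of 17804 ± 2340.3 (SD, n = 3). Ube2d2a gave 3693, 3732 and 2984 and Ube2d1 2067, 1654 and 1295, so all 3 replicates of each stood over the array median. Ube2e3 had 3219, 3183 and 2786 and Ube2e1 2096, 2135 and 1587. Ube2e2 came nearest to the median of the array, with 1011, 928 and 736, and in replicate 3 hardly exceeded it. Ube2d2b, a retrogene copy known from testis, was the member that stayed under it, with 55.6, 12.2 and 41.6. The Ube2d transcripts are close copies of each other, and probe sets may report more than 1 of them; the pseudogene Ube2d-ps, at 3785, 3248 and 1799 on MOE430B, is uncertain for the same reason.

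Of the E2s that build or extend ubiquitin chains, and their catalytically inactive partners, 6 of 7 genes were above the median. Ube2n joins with Ube2v1 to make the chains used in signalling and DNA repair: Ube2n gave 5058, 4819 and 6214 on MOE430A, and Ube2v1 8448, 6713 and 5641 there and 33701, 21982 and 24831 on MOE430B. Replicate 1 was the highest for Ube2v1 on both array types. Its relative Ube2v2 reached the median on at most 1 array with any probe set, its brightest MOE430A set reading 444, 808 and 707 and its brightest MOE430B set 754, 914 and 676. Ube2s, which elongates chains for the anaphase-promoting complex in mitosis, had 7564, 6744 and 8229, and Ube2k 6153, 4952 and 5095. Ube2r2, a relative of Cdc34 that serves cullin ligases, had 2306, 1732 and 1517, and Ube2g1 3719, 4771 and 3619. The probe sets given for these 4 genes lay clear of the median in every replicate. Other MOE430A probe sets of Ube2k and Ube2s were under it on every array, and so were both Ube2k probe sets of MOE430B.

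The 3 E2s of the endoplasmic reticulum, which tag misfolded proteins for degradation, were all above the median. Ube2j2 gave 4258, 4060.0 and 3943, Ube2j1 2289.9, 2592 and 1896 and Ube2g2 2826, 1531 and 1704. With these MOE430A probe sets Ube2j2 hardly varied (SD 0.06 on the log2 scale), whereas Ube2g2 was higher in replicate 1 than in either other replicate. The MOE430B probe set of Ube2j2 read 72.5, 1130 and 122 (SD 1.98) and exceeded the median in replicate 2 only. The other MOE430A probe set of Ube2g2 was under the median (268, 51.5 and 311) and highest in replicate 3. Among the E2s of DNA repair and chromatin, the Rad6 homologues Ube2b (2799.8, 4021 and 4066) and Ube2a (2646, 2247 and 2127) were above it. Ube2t, the E2 of the Fanconi anaemia pathway, was under it on all MOE430A arrays (116, 373 and 40.7) and over it on 2 of 3 MOE430B arrays (1644, 1854 and 765).

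E2s of ubiquitin-like modifiers were represented by 2 genes. Ube2f, an E2 of NEDD8, was above the median with all 4 of its MOE430A probe sets, the brightest at 2486, 2200.0 and 1382. Ube2l6, the E2 of the interferon-induced modifier ISG15, was not, with 289, 237 and 27.7. Replicates 1 and 2 of Ube2l6 were close to each other and replicate 3 far lower, all 3 under the median. Of 7 other E2s, 5 were above it. Ube2h gave 6178, 6616 and 7237, Ube2q1 13867, 11182 and 13008 on MOE430B, and Ube2z, which is charged by the E1 enzyme Uba6, 5408, 5843 and 3732. Ube2q2 had 1724, 1276 and 1791 on MOE430B, and the large Ube2o, which also acts as a ligase, 1485, 1044 and 1327 on MOE430A. Ube2u (644, 1594 and 129) and Ube2ql1 (612, 1229 and 502) exceeded the median in replicate 2 only, and the E2-binding protein gene Ube2cbp in replicate 1 only (1365, 225 and 246).

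**Figure D3:**
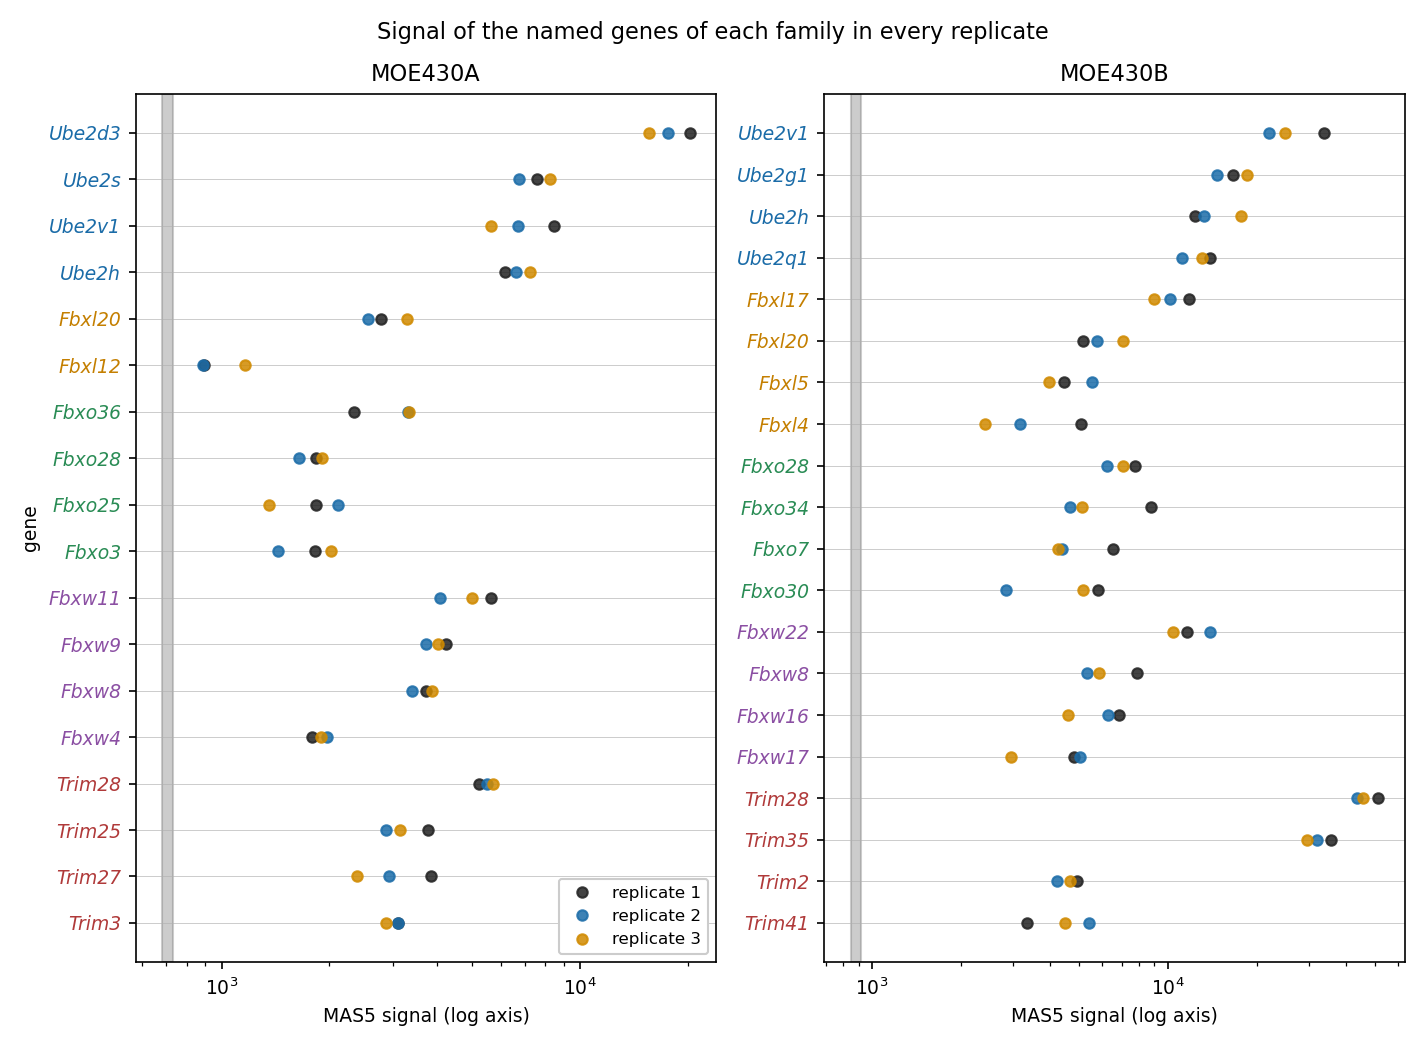
MAS5 signal (log axis) in replicates 1, 2 and 3 of up to 4 genes per family, those with the highest mean signal among genes above the array median, on MOE430A (left) and MOE430B (right); the grey band spans the medians of the 3 arrays. All points lie to the right of the band, and the 3 replicates of Trim28 lie between 5237 and 5714 on MOE430A.

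F-box genes of the cell cycle and the clock were above the median for 5 of 7 genes, beside 54.8% of all genes. Fbxw11, a beta-TrCP receptor that recognises phosphorylated IκB and β-catenin, gave 5651, 4071 and 4991 and 4017, 4884 and 5064 with its 2 brightest MOE430A probe sets; replicate 1 was the highest of the 3 with the former and the lowest with the latter. Fbxw8, which pairs with the cullin Cul7, had 3708, 3394 and 3853 on MOE430A and 7876, 5346 and 5846 on MOE430B. Fbxo5, the inhibitor Emi1 of the anaphase-promoting complex, had 2777, 1988 and 2765, and Fbxo31 2107, 3546 and 3528, both on MOE430B. Fbxo4 was above the median with 1 of 2 probe sets on MOE430A (957, 1019 and 1129). Fbxw7, the receptor for cyclin E, Myc and Notch, exceeded the MOE430A median in replicate 2 alone (597, 912 and 688). Fbxl21, a receptor of cryptochromes, exceeded the MOE430B median in replicates 1 and 2 (1282, 1159 and 843).

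Of the F-box proteins that bind glycoproteins, 3 of 5 genes were above the median, beside 54.8% of all genes. Fbxo27 gave 4502, 3864 and 3772 and Fbxo44 2103, 1399.8 and 2101 on MOE430B, and Fbxo6 1589, 1077 and 1197 on MOE430A. On MOE430A Fbxo2 was over the median in replicates 2 and 3 (622, 739 and 1255) and Fbxo17 in replicate 3 only (438, 245 and 1009.8). These last 2 genes were the more variable, with SDs of 0.52 and 0.99 on the log2 scale.

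Of the genes known for oocytes, testis or stem cells 5 of 11 were above the median, beside 54.8% of all genes. These 5 were all Fbxw genes of MOE430B. Fbxw22 had 11643, 13849 and 10381, Fbxw16 6834, 6283 and 4579, Fbxw17 4826, 5058 and 2948 and Fbxw19 3126, 2410.2 and 2786. Each of these 4 also exceeded the highest tryptophan control in every replicate, whereas the fifth, Fbxw18, did not (1884, 1269 and 2035). Most of these genes lie in a cluster of closely related copies on chromosome 9, so which copy a probe set reports is uncertain. Other members of the same kind were not above the median: Fbxw24 (1151, 1175 and 105), which was over it in replicates 1 and 2 and far under it in replicate 3, and Fbxw21 (369, 221 and 260.2), Fbxw13 and Fbxw14, which were under it on every array. Fbxo15, a gene of undifferentiated stem cells, was under it in all 3 replicates (200.2, 430.1 and 169), and so was Fbxo43, the oocyte inhibitor Emi2 (18.8, 26.4 and 216). None of the 7 pluripotency markers measured, Pou5f1 and Nanog among them, was above the median either.

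The remaining F-box genes named by their signal have varied substrates. Fbxl20 was above the median on both array types, with 2779.5, 2567 and 3289 on MOE430A and 5148, 5745 and 7034 on MOE430B. On MOE430B Fbxl17, which takes apart faulty BTB protein dimers, gave 11792, 10182 and 8997, and Fbxl5, the iron-sensing receptor of IRP2, 4445, 5552 and 3947. Fbxl4, a mitochondrial protein, had 5089.9, 3151 and 2416 on MOE430B, highest in replicate 1, and Fbxl12 894, 888 and 1161 on MOE430A. Fbxo28 was over the median with each of its probe sets, reading 1829, 1642 and 1911 on MOE430A and 7729.6, 6241 and 7031 with the brighter on MOE430B. On MOE430B Fbxo7, mutated in a juvenile form of parkinsonism, gave 6524, 4387 and 4263, Fbxo34 8748, 4659.6 and 5139 and Fbxo30 5822, 2838 and 5158. Replicate 1 was the highest for all 3 with these probe sets. On MOE430A, Fbxo36 had 2342, 3302 and 3326, Fbxo25 1829, 2109.7 and 1354 and Fbxo3 1829, 1439.7 and 2024, and among the Fbxw genes Fbxw9 4227, 3706 and 4022 and Fbxw4 1790.1, 1967 and 1899.6. Fbxo36 was lowest in replicate 1 with this probe set, but its other read 875, 419 and 953, lowest in replicate 2. Fbxw4 differed little between replicates (SD 0.07 on the log2 scale).

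Ligases of striated muscle, the F-box gene Fbxo32 and 3 Trim genes, were above the median for 0 of 4 genes, beside 54.8% of all genes. Fbxo32, or atrogin-1, reached it in replicate 2 of MOE430A (488, 799 and 383) and in replicates 1 and 2 of MOE430B (2469, 2273 and 831). Trim63, or MuRF1, stayed under it with 58.6, 64.4 and 153, Trim54 with 62.6, 19.2 and 50.4 and Trim72, a protein of membrane repair, with 187, 325 and 105. Of 7 muscle markers 3 were above the median: Des (1314, 991 and 1023), Ckm (895, 1120.5 and 1178) and Actc1 (860.4, 1374 and 1292). Myod1 (441, 344 and 633), Myog (132, 136 and 263), Myh3 (205, 25.2 and 163) and Tnnt3 (435, 347 and 103) were not.

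Among TRIM proteins, 2 of the 4 chromatin cofactors of the TIF1 group were above the median, beside 54.8% of all genes. Trim28, the cofactor of KRAB zinc-finger repressors whose promoter is printed above, gave 5237, 5488 and 5714 on MOE430A and 51457, 43669 and 45591 on MOE430B. Its mean on MOE430A was 5479.8 ± 239 (SD, n = 3), and the replicates were close together on both array types. Trim33, a partner of SMAD proteins, had 2498, 2590.1 and 2661 on MOE430A, with an SD of 0.05 on the log2 scale, but 1226, 1538 and 2239 on MOE430B, with one of 0.43. Trim24, a cofactor of nuclear receptors, was over the MOE430A median in replicates 1 and 2 but not 3 (980.0, 797 and 574). Trim66, known from testis, was under the MOE430B median (55.7, 578 and 73.4).

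TRIM proteins with NHL repeats, relatives of the fly protein Brat, were above the median for 3 of 4 genes. Trim3 gave 3115, 3113 and 2879 and Trim32 2438, 2969 and 1974 on MOE430A, and Trim2 4917, 4232 and 4661 on MOE430B. The fourth, the stem cell protein Trim71, was under it with both of its probe sets, the brighter reading 142, 313 and 588. Of the 4 TRIM proteins with a microtubule-binding COS box, Trim46 (1396, 1164 and 1532 on MOE430A) and Trim36 (1194, 1379 and 1006 on MOE430B) were above it. On MOE430B Trim9 exceeded it in replicates 2 and 3 (301, 937 and 2286), and Trim67 in none (332, 223 and 201). Other Trim genes named by their signal were Trim35 (35467, 32028 and 29519) and Trim41 (3336, 5393 and 4493) on MOE430B and Trim27 (3845, 2937 and 2387) on MOE430A. Those probe sets were over the median in all replicates, whereas Trim35 and Trim27 also have a probe set that was not.

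Of 11 TRIM genes of innate immunity, several of which interferon induces, 5 were above the median, beside 54.8% of all genes. Trim25, which activates the RNA sensor RIG-I, gave 3758, 2875 and 3136 and Trim26 1834, 2724 and 2037 on MOE430A. On MOE430B Trim14, which lacks a RING domain, had 2052, 1578 and 1880.2 and Trim56, a regulator of nucleic acid sensing, 1617, 982 and 2647. Trim21, the cytosolic antibody receptor, was above with both of its MOE430A probe sets (1578, 1349.8 and 1222 and 753, 1391 and 1173), and these ordered the replicates differently. With its brighter MOE430B probe set Trim12c exceeded the median in replicates 2 and 3 only (809.8, 3005 and 2423). Its other MOE430B probe set, with a mean of 990, exceeded it on some but not all arrays. On MOE430A Trim30a exceeded it in replicate 2 only (621, 827 and 539). Trim5 (72.2, 33 and 12.2), Trim12a (434, 431 and 383), Trim30d (94.1, 25.9 and 53.5) and Trim34a (110.5, 398 and 371) never did. All 6 measured markers of the interferon response were above the median on MOE430A, Ifit1 at 5036, 4426 and 2229.7 and Rsad2 at 1674, 867 and 794, and their summed signal was 16646, 11876 and 8732. That sum was highest in replicate 1 and lowest in replicate 3; of the values given for the 5 genes above the median, those of 1 Trim21 probe set had the same order. The part of the interferon response in these values was not tested.

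The motif GAAA, any 2 bases, then GAAA again, the core of the interferon-stimulated response element, was searched on both strands of the same 250 bases. It occurred in 5 of 47 Trim promoters (10.6%), against 2.64% of all measured genes and 3.04% of the 27025 promoters in the table. The other members held it in 2 genes, Fbxl15 and Fbxo36. The 5 Trim stretches are shown because 4 of them lie on chromosome 7 in genes not above the median, and the fifth belongs to Trim26 on chromosome 17, which was above it. Capitals mark the matches, which here read TTTC, 2 bases, TTTC, the motif's reverse complement, on the gene's strand; in Trim26, 2 matches overlap.
Trim26 (chr17:36836961-36837020, plus strand): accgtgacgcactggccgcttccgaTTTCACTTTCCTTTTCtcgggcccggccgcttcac
Trim5 (chr7:104288121-104288180, minus strand): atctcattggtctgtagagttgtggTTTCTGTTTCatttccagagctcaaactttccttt
Trim12c (chr7:104353350-104353403, minus strand): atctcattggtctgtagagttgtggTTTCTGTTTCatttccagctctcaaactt
Trim30a (chr7:104465195-104465254, minus strand): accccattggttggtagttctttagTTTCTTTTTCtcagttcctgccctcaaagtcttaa
Trim30d (chr7:104507856-104507915, minus strand): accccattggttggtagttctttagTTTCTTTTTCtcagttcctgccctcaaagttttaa
The match begins 160 bases before the start in Trim26, 49 in Trim5, 29 in Trim12c, 36 in Trim30a and 41 in Trim30d. In a global alignment of the 250 bases, Trim5 and Trim12c were identical at 219 of 230 aligned bases (95.2%) and Trim30a and Trim30d at 226 of 245 (92.2%), so these 4 matches are not independent of each other. A match is a description of the letters and not a site of binding.

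Partner genes, those of the relay and of ubiquitin-like modifiers and members of the 3 families under other names, were mostly above the median. On MOE430A 22 of 26 measured partner genes were above it, and 9 of 13 on MOE430B, beside the 50.1% and 51.0% of all genes. Of these partners, 10 on MOE430A and 7 on MOE430B were members of the 3 families under other names. Those above it included all 5 measured E1 genes, which serve ubiquitin or ubiquitin-like modifiers. Among them were Uba6 (9396, 8066 and 6219) on MOE430B, and Uba3 (3009, 3382 and 2835) and Sae1 (8276, 9524 and 4974) on MOE430A. Of 9 genes listed for ubiquitin and its relatives 2 were measured, Sumo3 and the NEDD8 gene (19409, 14680.2 and 15799), both above it. The counts that follow are over either array type, where 54.8% of all genes were above the median. Of the SCF scaffold and its relatives 11 of 12 were above it. Skp1 gave 6176, 5427 and 5254 and Cul1 1609.8, 1441 and 1510.4 on MOE430A, while Rbx1 was under the median on MOE430B (252, 348 and 275). Members of the 3 families under other names were above the median for 8 of 11 genes. The E2 gene Cdc34 gave 7876, 6220.4 and 5681 and the TRIM gene Pml 3015, 1879 and 2364 on MOE430A. The F-box gene Btrc, the second beta-TrCP, gave 2658, 2883 and 2799.6 on MOE430B. Ccnf (105, 119.5 and 150.4), Skp2 (1021, 537 and 1112) and Mid2 (362, 571 and 427), all read on MOE430A, were not above it.

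Of the fibroblast markers all 10 were above the median on MOE430A, Col1a1 at 80483, 107005 and 133057 and Vim at 164029, 130581 and 153518. On MOE430B, which carries other probe sets of 3 of them, Sparc was above it (1196, 1129 and 2641) and Col1a2 (194, 209 and 995) and Pdgfra (1639, 183 and 1629) were not. Above it were 2 of 6 macrophage markers (Csf1r and Lyz2, with Ptprc at 56.9, 29.9 and 181), 2 of 6 neuronal markers (Stmn2 and, on MOE430B only, Syt1) and 2 of 5 epithelial markers (Krt8 and, on MOE430B only, Epcam, at 17127, 36210.1 and 43842 there and 37, 80.5 and 68.8 on MOE430A). The values of Epcam are so far apart that the annotation of its probe sets is uncertain, and without Epcam the epithelial count is Krt8 alone. Their part in the members' signals was not tested. The 2%-trimmed mean signal without control probe sets lay between 1478 and 1480 on every array.

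Several probe sets of a gene often lay on different sides of the median. Of 42 member genes with several probe sets on MOE430A, 11 had all of them above it, 10 none and 21 some. On MOE430B the counts were 12, 12 and 12 of 36. One probe set of Ube2e3 gave 3219, 3183 and 2786 and the other 32.9, 15.4 and 15.5. Ube2k had 6153, 4952 and 5095 with 1 probe set and 128, 40.3 and 25.1 with another, and Ube2s 7564, 6744 and 8229 and 51.5, 223 and 51. Each pair stood on opposite sides of the median in every replicate. For Fbxw2, a receptor with WD40 repeats, 1 of 6 probe sets was above the median (1358, 1119.7 and 861), and its dimmest gave 20.5, 39.5 and 10.2. On MOE430B the same held for Ube2z (4983, 4543 and 4374 and 48.1, 108 and 145), Fbxl7 (2251, 3609 and 2059.9 and 87.9, 59.8 and 90.5) and Trim2 (4917, 4232 and 4661 and 400.3, 271 and 252). Trim35 gave 35467, 32028 and 29519 with the probe set named above and 982, 312 and 1524 with its other, which crossed the median between replicates. If all probe sets of a gene had to be above the median, 42 in place of 63 member genes would count on MOE430A.

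**Figure D4:**
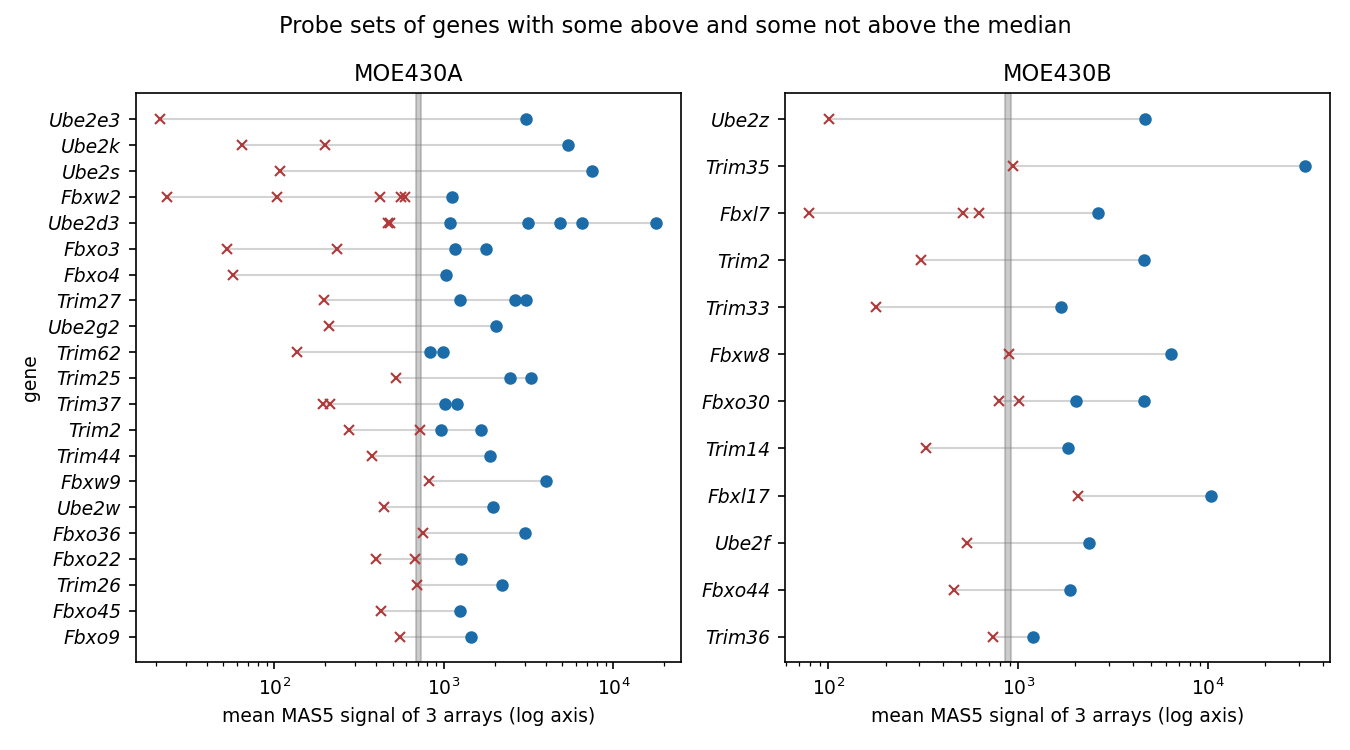
Mean MAS5 signal of the 3 arrays (log axis) of every probe set of the member genes that had some probe sets above the array median on all 3 arrays (circles) and some not (crosses), 21 genes on MOE430A (left) and 12 on MOE430B (right); the grey band spans the array medians. The lowest mean plotted is 21.3, for a probe set of Ube2e3 whose other probe set stands at 3062.

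Genes measured on both array types add a second view. Of the 40, 20 were above the median on both, 8 on MOE430A only (Fbxo6, Fbxw11, Fbxw2, Ube2b, Ube2d2a, Ube2j2, Ube2k and Ube2w), 4 on MOE430B only (Fbxo31, Fbxo42, Trim59 and Trim7) and 8 on neither. In most of these the probe sets differ between the array types, but 3 member probe sets are among 100 that both carry. Ube2g1 gave 3719, 4771 and 3619 on MOE430A and 16554, 14706 and 18557 on MOE430B, Ube2v1 the values above, and Ube2r2 2306, 1732 and 1517 and 8705, 6424 and 6196. Signals of each of the 3 were higher on MOE430B in every replicate although the array means were alike, and levels were not compared between array types. The difference of replicate 1 from the mean of replicates 2 and 3 was alike on both: 0.46 and 0.53 on the log2 scale for Ube2v1, 0.50 and 0.46 for Ube2r2, and -0.16 and 0.00 for Ube2g1. These gaps between array types, from 0.04 to 0.16, were below the median gap of 0.26 over the 100 probe sets. The order of the 3 replicates was the same on both for Ube2r2 but not for Ube2v1 or Ube2g1. Ube2g1 was highest in replicate 2 on MOE430A and lowest in replicate 2 on MOE430B.

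The spread between replicates was measured as the SD of log2(signal + 16) over the 3 arrays, for the probe sets whose mean log2 signal exceeded that of the array medians. Its median was 0.24 over 106 member probe sets of MOE430A, against 0.26 over all 11091 such probe sets, and 0.27 over 74 member probe sets of MOE430B, against 0.33 over 10631. By family it ran from 0.19 (Fbxw) to 0.29 (Fbxl) on MOE430A and from 0.26 (Ube2) to 0.37 (Trim) on MOE430B. The most variable members above the median were, on MOE430A, Trim37, a ligase of peroxisomes and centrosomes (716, 785 and 1530.0), Trim8 (3195, 1626 and 2898) and Ube2f (1496, 1264 and 761). Replicate 3 stood apart for these probe sets of Trim37 and Ube2f, and replicate 2 for that of Trim8. Those of Trim37 and Ube2f are not the brightest of their genes. The brightest Trim37 set was also highest in replicate 3 (1028, 958 and 1582). The brightest Ube2f set was also lowest in replicate 3 (2486, 2200.0 and 1382), but another read 1581, 899 and 1065. The last Ube2f set had an SD of 0.20, and the other Trim8 sets had SDs of 0.51 and 0.20. On MOE430B they were Fbxo42 (3611, 5059.9 and 1436), Trim56 and Trim27 (1974, 4637 and 2007). The last was high in replicate 2 alone with this probe set.

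Replicate 1, made from more cells, was set against replicates 2 and 3 with limma on the same probe sets. This leaves 1 residual degree of freedom, and the scan adds to it: the MOE430A arrays of replicates 1 and 2 were scanned on the same day and station and replicate 3 on another day and station, and the MOE430B array of replicate 1 on another station than replicates 2 and 3. On MOE430B station and cell number cannot be told apart. At an adjusted p of 0.05 (limma, Benjamini-Hochberg over all probe sets tested), 0 of 106 member probe sets were called on MOE430A, where 78 of 11091 (0.703%) were called in all. On MOE430B 0 of 74 were called and 0 of 10631 (0.0%) in all. At an unadjusted p under 0.05 the members called were 2 of 106 (8.1% of all probe sets) and 2 of 74 (7.25% of all). No alternative run called a member, limma with an intensity trend in the prior variance included.

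The members with the smallest p are given as values. On MOE430A Trim10, a gene of red cell maturation, gave 507, 1002 and 863, lowest in replicate 1 with a log2 difference of -0.85 (SE 0.37; limma adjusted p = 0.497). Ube2g2 was highest in replicate 1 with its brighter probe set, with a difference of 0.80. Its other probe set, under the median, was not among those tested. Trim21 differed by -0.75 with 1 probe set (limma adjusted p = 0.625) and by 0.29 with its other. On MOE430B the probe set of Fbxl17 with signals of 557, 2999.8 and 2664 had the largest difference of any tested member, -2.31 (SE 0.37; limma adjusted p = 0.405). The brighter probe set of the same gene differed by 0.30, so the low signal in replicate 1 was seen with 1 of 2 probe sets. Trim12c was also lowest in replicate 1, by -1.72 (limma adjusted p = 0.466), and so was a probe set of Fbxo30 (619, 1218 and 1197; a difference of -0.95, limma adjusted p = 0.699). The other 3 probe sets of Fbxo30 differed by -0.03, 0.02 and 0.60. The other probe set of Trim12c was not among those tested.

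The share of members higher in replicate 1 differed between the array types. On MOE430A 59 of 106 were higher there than the mean of replicates 2 and 3 (55.7%; 48.9% of all probe sets), with a median log2 difference of 0.05 (-0.01 over all), while replicate 3 was the highest of the 3 for 45 probe sets and replicate 1 for 39. On MOE430B 52 of 74 were (70.3%; 52.6% of all), with a median of 0.21 (0.03 over all). Against replicate 2 alone, scanned on the same day and station, the MOE430A median was 0.12, and against replicate 3 alone it was -0.07, so its direction rests on the replicate chosen. On MOE430B both were 0.17. Ube2 probe sets were higher in replicate 1 for 24 of 36 on MOE430A (median 0.17) and 15 of 18 on MOE430B (median 0.21). On MOE430A replicate 1 was the highest for 18 of the 36 and replicate 3 the lowest for 19. Both array types carry 3 of these Ube2 probe sets and were hybridised with the same RNA, so their counts are not independent. Fbxo probe sets went another way on each array type: 8 of 19 were higher in replicate 1 on MOE430A, where replicate 3 was the highest of the 3 for 13 of 19, and 14 of 19 on MOE430B, where replicate 1 was the highest for 13 of 19. No list of members was tested for these shares.

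**Figure D5:**
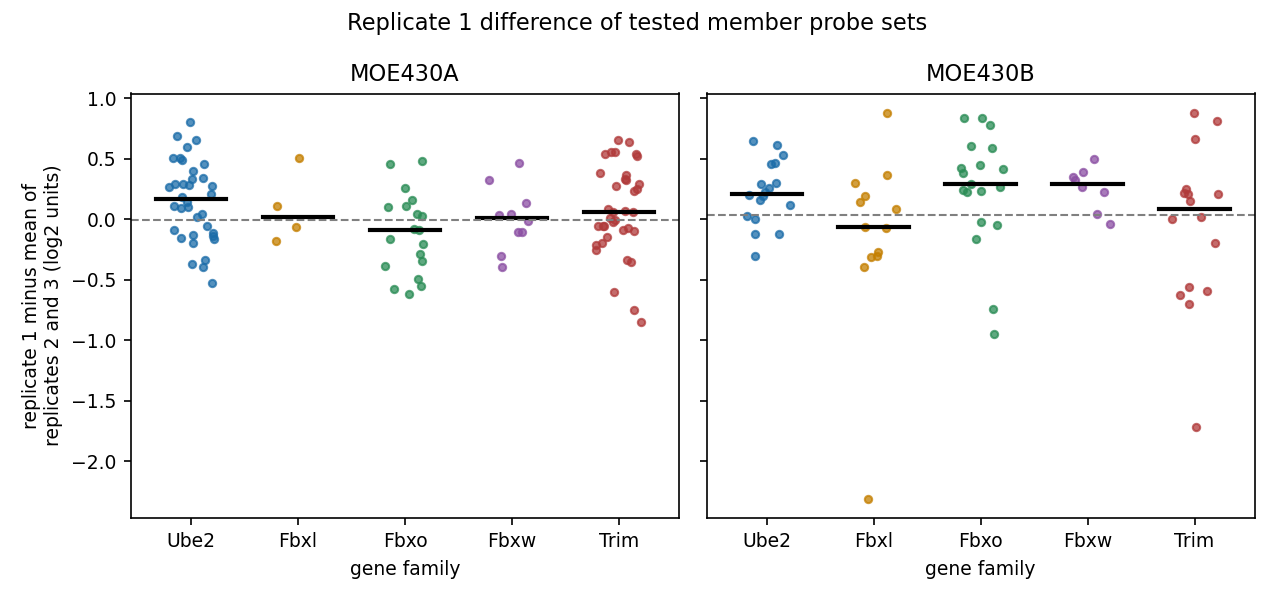
Replicate 1 minus the mean of replicates 2 and 3 (log2 units) for each tested member probe set by family, on MOE430A (left) and MOE430B (right); thick lines are family medians and the dashed line the median of all probe sets tested. On MOE430B the lowest point, at -2.31, is a probe set of Fbxl17 and the next, at -1.72, one of Trim12c.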

How the data were processed

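Total RNA of 3 replicates was hybridised to MOE430A and MOE430B arrays. The deposited tables hold probe set intensity values that the authors made with MAS5, per the submitters' processing notes; its settings and scaling target are not stated there. The scan records deposited with each array gave the station and day (kept as codes), values of unit other, per the file headers.

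Values were used as deposited, each array type apart, after leaving out 64 control probe sets per type. Gene symbols came from GEO's platform annotation: 20380 MOE430A and 14661 MOE430B probe sets have 1 symbol, 691 and 245 have several and 1555 and 7605 none; those with several or none were not named. Entries of RefSeq matched 20351 and 14486. Means and SDs are over 3 arrays, whose number limits the precision. Replicate 1 was compared with limma 3.58.1 (R 4.3.3; lmFit and eBayes) on log2(signal + 16), Benjamini-Hochberg adjusted, and the code was tested on simulated data. Tables were made with Python 3.11.15 and pandas 2.3.3, and promoters were aligned with Biopython 1.88. Alternatives were other thresholds, pseudocounts of 1 and 64, quantile normalization, no filter on dim probe sets, an eBayes trend and leaving out each replicate; those of the median replicate 1 difference were chosen after seeing the data.

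Members and lists were chosen with earlier results of these data known. Genes were named by rule: per family and array type the 4 brightest genes above the median, by mean signal; per list up to 4 above it and up to 3 not; the 3 with the largest SD and the 3 with the smallest p per array type; and up to 4 with probe sets on both sides of the median. A gene is shown by its brightest probe set unless stated. The rule gave 89 of 157 genes; other members named to complete a list or a count, Fbxw18 and Ube2cbp among them, were chosen after their values were seen.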

Additional observations from a re-analysis of the deposited data

How the results depend on the processing

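Counts above the threshold moved by over 1.5 times with its height. At the 75th percentile of each array, 39 in place of 91 member probe sets and 30 in place of 63 member genes were above it on MOE430A, with 13 in place of 22 partner genes; on MOE430B the counts were 39 in place of 66 probe sets and 32 in place of 52 genes. On MOE430B a fixed signal of 200 gave 103 probe sets and the highest tryptophan control 38, with 31 genes. The member gene shares at the 75th percentile were 29.7% on MOE430A (25.4% of all genes) and 33.3% on MOE430B (29.3% of all). With the fixed signal, 76 of 96 member genes (79.2%) were above it on MOE430B, beside 79.8% of all genes. The members thus showed no excess there. On MOE430A 87 of 101 member genes (86.1%) were above it, beside 9294 of all 12393 genes. Leaving out each replicate in turn gave 94 to 97 probe sets, 66 to 67 genes and 22 to 23 partner genes on MOE430A, and 68 to 70 probe sets, 52 to 56 genes and 9 partner genes on MOE430B. The median SD was then 0.19 to 0.22 and 0.21 to 0.26. The median replicate 1 difference ran from -0.07 to 0.12 on MOE430A and was 0.17 on MOE430B. With quantile normalization it was 0.08 and 0.17. Over all MOE430A probe sets, limma called 78, but 0 with quantile normalization (749 at an unadjusted p under 0.05) or without the filter on dim probe sets (1297), and 165 with an eBayes trend; the cause was not tested. No paired analysis was possible because the replicate numbers join MOE430A and MOE430B arrays of the same RNA, which were not compared with each other.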

Other observations

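Trim59 and Trim44, which the naming rule did not pick, were singled out after their values were seen. Trim59 crossed the median on MOE430A (1005, 842 and 486) but not on MOE430B (5188, 2418 and 3283), and was highest in replicate 1 on both. Trim44 was also highest in replicate 1 on both array types, with 2217, 1585 and 1822 and 4054, 2510.2 and 2598, but its other MOE430A probe set was lowest there (227, 399 and 496). For neither gene did limma call a probe set in replicate 1.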
